A study of Mus musculus with 24 samples.

Results

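The 10 chemokine genes Ccl2, Ccl7, Ccl12, Ccl3, Ccl4, Ccl5, Cxcl1, Cxcl2, Cxcl9 and Cxcl10 were followed in thymocytes of male and female mice after low dose irradiation, high dose irradiation or both. They were chosen by name as inflammatory chemokines, with earlier results of these data known. The set was built around Ccl7, selected on its rise in the group given both doses against control, one of the largest on these arrays. Probes were assigned through the accession in the array files, which gave 11 of the 55681 probes for the 10 of 21154 named genes. Cxcl9 has 2 probes, the other genes have 1, and 0 of the 10 genes lacked a probe. No filter on low values was applied before the fit, so all 10 genes entered every comparison.

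The 24 arrays, 3 for each of 8 groups, held thymocyte RNA of young C57BL/6J mice, each array from a separate mouse. Control mice were not irradiated, low dose mice received 0.075 Gy of X-rays, high dose mice received 1.75 Gy of γ-rays, and mice under the adaptive regimen (RAR, radio-adaptive response) received 0.075 Gy of X-rays and 6 h later 1.75 Gy of γ-rays. The sample labels speak of irradiated thymocytes and the methods of irradiated mice, and the methods are followed here. The time from the last dose to the dissection is not given in the sources used here. Thymi were dispersed mechanically and passed through a mesh, and no sorting step is described, so other cells of the thymus can be present in the samples. Cy5 labelled the thymocyte RNA and Cy3 a commercial Universal Mouse RNA throughout, and a level below means the log2 ratio of thymocyte to reference signal of a gene, which can be compared between arrays but not between genes.

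Chemokines are small secreted proteins that guide leukocytes through receptors on their surface. CCL2, CCL7 and CCL12 act on CCR2 and draw monocytes, CCL3, CCL4 and CCL5 draw monocytes and T cells, CXCL1 and CXCL2 act on CXCR2 and draw neutrophils, and CXCL9 and CXCL10 act on CXCR3 and draw activated T cells. Many of these genes are transcribed in response to NF-κB, and CXCL9 and CXCL10 in response to interferons. Irradiation of the thymus kills many thymocytes, and dying cells there are engulfed by macrophages, which are a known source of several of these chemokines.

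The promoters of the 4 CXC ligands are shown because these genes moved differently from each other after single and combined doses. Each line gives the 250 bases before the transcription start on the strand of the gene, from RefSeq (GRCm38.p6), with matches to the NF-κB consensus and to the core of the interferon-stimulated response element (GAAANNGAAA) in capitals. Both strands were searched, and matches that overlap are joined into 1 run of capitals. The windows are chr5:90890995-90891244 (plus strand) for Cxcl1, chr5:90903649-90903898 (plus strand) for Cxcl2, chr5:92348890-92349139 (minus strand) for Cxcl10 and chr5:92328080-92328329 (minus strand) for Cxcl9.
Cxcl1: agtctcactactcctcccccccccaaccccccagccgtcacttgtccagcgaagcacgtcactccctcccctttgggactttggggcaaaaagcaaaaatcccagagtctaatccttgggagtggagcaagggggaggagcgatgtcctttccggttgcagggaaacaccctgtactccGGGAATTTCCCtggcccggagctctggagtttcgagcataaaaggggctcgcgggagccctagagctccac
Cxcl2: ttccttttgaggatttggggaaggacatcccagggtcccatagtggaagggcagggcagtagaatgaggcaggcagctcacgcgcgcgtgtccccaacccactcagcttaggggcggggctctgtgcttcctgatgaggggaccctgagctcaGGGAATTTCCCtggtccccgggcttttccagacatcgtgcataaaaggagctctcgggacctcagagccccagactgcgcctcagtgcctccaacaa
Cxcl10: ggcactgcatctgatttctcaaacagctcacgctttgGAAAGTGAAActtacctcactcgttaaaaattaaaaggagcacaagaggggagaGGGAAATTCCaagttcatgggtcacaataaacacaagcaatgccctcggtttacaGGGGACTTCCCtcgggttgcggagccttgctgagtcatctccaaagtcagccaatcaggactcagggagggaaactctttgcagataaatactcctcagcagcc
Cxcl9: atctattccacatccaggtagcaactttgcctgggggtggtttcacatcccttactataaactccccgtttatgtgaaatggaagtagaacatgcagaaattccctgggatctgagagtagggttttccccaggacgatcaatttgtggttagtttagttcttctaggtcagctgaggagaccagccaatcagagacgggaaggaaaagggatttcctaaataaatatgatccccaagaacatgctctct
Windows were found for 6 of the 10 genes, these 4 with Ccl3 and Ccl12, and not for Ccl2, Ccl7, Ccl4 and Ccl5. The NF-κB consensus was matched in 7.25% of all 32851 windows of this length and the response element core in 2.98%. The capitals at positions -71 to -61 of Cxcl1 and -97 to -87 of Cxcl2 (counted back from the start) are the same letters, a match on both strands. Cxcl10 holds the response element core at positions -213 to -204 and NF-κB matches at -159 to -150 and -104 to -94. Cxcl9, Ccl3 and Ccl12 held no match to either motif in these windows. A match of letters does not show that a factor bound there.

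Most of these chemokines stood higher after either single dose than in control, and 6 of them stood higher again in RAR than after the high dose. Ccl2, Ccl7, Ccl12, Ccl3, Ccl4 and Cxcl10 formed this last set in both sexes. Ccl5 moved by small amounts, Cxcl1 and Cxcl2 rose after the single doses without a further called rise over the high dose, and Cxcl9 passed the threshold nowhere. In bulk samples such as these, a change in the number of cells that make a transcript and a change of the transcript per cell cannot be told apart.

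The counts were as follows, where the threshold was a limma p adjusted over the 55681 probes of under 0.05 together with a 1.5-fold or larger change. Low dose minus control was higher for 9 of the 10 genes in females, beside 4.76% of all probes, and for 8 of 10 in males, beside 3.21%. High dose minus control was higher for 8 genes in females, beside 4.23% of all probes, and for 9 in males, beside 5.20%. RAR minus high dose was higher for 6 genes in females, beside 4.0%, and for the same 6 genes in males, beside 3.10%. RAR minus low dose was higher for 6 genes in females, beside 2.28%, and for 8 in males, beside 4.98%. Ccl7 is 1 of the genes in each of these counts, and the other 9 genes gave 8 and 7 for low dose minus control in females and males, 7 and 8 for high dose minus control, 5 and 5 for RAR minus high dose and 5 and 7 for RAR minus low dose. No chemokine was lower past the threshold in any of these comparisons. The median difference of the 10 genes was 1.81 and 1.66 log2 units for low dose minus control in females and males, 1.63 and 2.19 for high dose minus control, and 2.04 and 2.27 for RAR minus high dose, where the medians over all probes lay between -0.05 and 0.00.

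Because the comparisons with control share the control arrays, and those with RAR share the RAR arrays, with the contrast that selected Ccl7, none of them is independent of that choice, and the differences of Ccl7 in them are given with no p. High dose minus low dose shares no array with it. The other 9 genes were chosen with earlier results of these data known. Their p-values and counts in the comparisons that share arrays with that contrast are therefore not independent of the choice either. By rise from control to RAR, they ranked from 8 (Ccl4) to 16849 (Cxcl9) in females. In males they ranked from 6 (Cxcl10) to 6398 (Cxcl9). For RAR minus control, the contrast of the selection, 9 of the 10 genes had RAR arrays all above the control arrays in females and 9 in males. The same held for 15.2% of all probes in females and 18.7% in males, and nothing is read from these counts. With 3 arrays against 3, an exact two-sided permutation test of a single gene cannot go below 0.1.

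**Figure D1:**
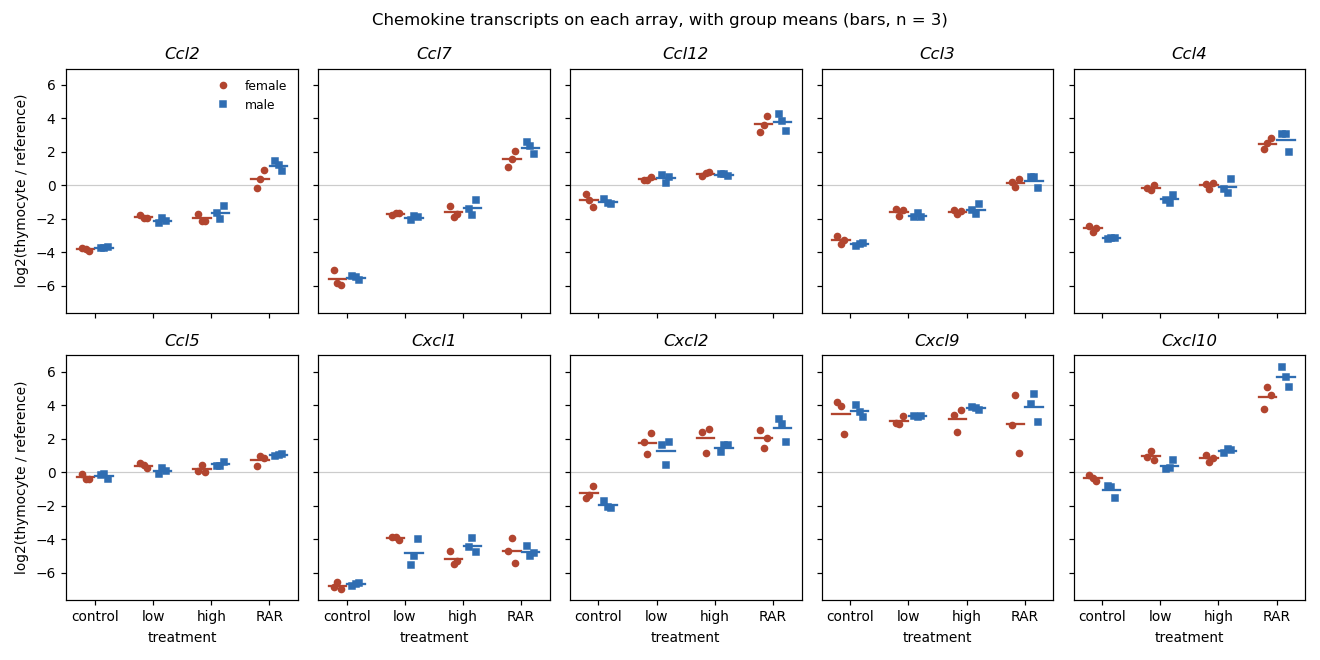
Log2 ratio of thymocyte to reference signal (vertical axis) of the 10 chemokine genes on each of the 24 arrays by treatment (horizontal axis), with females as circles, males as squares and bars for the means of 3 arrays. Ccl7 climbs from between -5.94 and -5.06 in female control to between 1.11 and 2.04 in female RAR, with both single doses between, while Cxcl1 and Cxcl2 have their main step between control and the irradiated groups and the control and RAR arrays of Cxcl9 overlap.

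The CCR2 ligands showed 3 separate levels, with control lowest, the single doses between and RAR highest. Ccl7 had log2 ratios of -5.06, -5.82 and -5.94 in female control, -1.75, -1.64 and -1.67 after the low dose, -1.25, -1.88 and -1.71 after the high dose and 1.11, 1.56 and 2.04 in RAR. The corresponding values in males were -5.41, -5.50 and -5.65 in control, -2.08, -1.83 and -1.91 after the low dose, -1.42, -1.79 and -0.85 after the high dose and 2.56, 2.34 and 1.85 in RAR. Neither sex had any overlap between control, the single doses and RAR, while the 2 single doses overlapped in females. The RAR mean was above the control mean by 7.18 in females and 7.77 in males, which placed Ccl7 at rank 2 and rank 1 of 21154 genes by rise; these are the values that selected it. Against control, the low dose mean was 3.93 ± 0.27 (SE, n = 3 and 3) higher in females and 3.58 ± 0.27 higher in males, and the high dose mean was 4.0 ± 0.27 and 4.17 ± 0.27 higher. RAR stood 3.18 ± 0.27 above the high dose in females, a 9.08-fold difference, and 3.60 ± 0.27 above it in males, a 12.1-fold difference. In females the step from control to either single dose was larger than the step from the high dose to RAR, and in males the steps were 3.58, 4.17 and 3.60. This order depends on the background handling. With normexp background correction and loess the 3 steps were 2.57, 2.61 and 3.08 in females and 2.64, 3.10 and 3.59 in males, the last the largest.

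Ccl2, the best known attractant of monocytes, repeated this order on a smaller scale. In females its log2 ratios were -3.74, -3.79 and -3.89 in control, -1.79, -1.95 and -1.92 after the low dose, -1.69, -2.12 and -2.10 after the high dose and -0.16, 0.36 and 0.94 in RAR. In males they were -3.76, -3.72 and -3.66, then -2.27, -1.96 and -2.10, then -1.65, -1.99 and -1.25, and 1.48, 1.20 and 0.86 in RAR. Every RAR array lay above every array of the other groups. The step from high dose to RAR was 2.35 ± 0.23 in females (limma, adjusted p = 4.38e-06) and 2.81 ± 0.23 in males (adjusted p = 6.94e-07), against steps from control to high dose of 1.84 ± 0.23 (adjusted p = 2.65e-05) and 2.08 ± 0.23 (adjusted p = 5.37e-06).

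Ccl12, a further CCR2 ligand found in mice, rose more from the high dose to RAR than from control to the high dose. Its log2 ratios in females were -0.49, -0.85 and -1.30 in control, 0.31, 0.30 and 0.47 after the low dose, 0.58, 0.71 and 0.82 after the high dose and 3.21, 3.63 and 4.12 in RAR. Males had -0.82, -1.08 and -1.11 in control, 0.62, 0.14 and 0.52 after the low dose, 0.66, 0.66 and 0.59 after the high dose and 4.26, 3.83 and 3.26 in RAR. No array of one of control, single doses and RAR reached into another of these levels. High dose minus control was 1.58 ± 0.24 in females and 1.64 ± 0.24 in males, and RAR minus high dose was 2.95 ± 0.24 (limma, adjusted p = 1.00e-06) and 3.15 ± 0.24 (adjusted p = 5.67e-07).

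Ccl3 and Ccl4 followed the same order, and Ccl5 changed by smaller amounts. Ccl4 had log2 ratios of -2.40, -2.78 and -2.54 in female control, -0.15, -0.29 and 0.02 after the low dose, 0.07, -0.20 and 0.12 after the high dose and 2.15, 2.53 and 2.80 in RAR. In males the values were -3.22, -3.14 and -3.13, then -0.88, -1.03 and -0.59, then -0.22, -0.45 and 0.38, and 3.05, 3.06 and 2.02 in RAR. Its male high dose arrays all lay above its male low dose arrays, whereas in females the single doses overlapped. RAR exceeded the high dose by 2.50 ± 0.25 in females (limma, adjusted p = 6.66e-06) and 2.81 ± 0.25 in males (adjusted p = 1.82e-06). Ccl3 ranged from -3.52 to -3.01 in female control and from -3.62 to -3.44 in male control, from -1.88 to -1.14 over all single-dose arrays, and from -0.15 to 0.50 over the RAR arrays. Its RAR minus high dose difference was 1.72 ± 0.20 in females (adjusted p = 2.52e-05) and 1.73 ± 0.20 in males (adjusted p = 2.10e-05). Ccl5, which T cells also make, lay between -0.43 and -0.09 in control, between -0.11 and 0.61 after the single doses and between 0.35 and 1.07 in RAR. It passed the threshold for low dose minus control in females (0.69 ± 0.16, adjusted p = 0.00559), high dose minus control in males (0.71 ± 0.16, adjusted p = 0.00444) and RAR minus low dose in males (0.96 ± 0.16, adjusted p = 0.000409). For RAR minus high dose its changes, 1.47-fold in females and 1.49-fold in males, had adjusted p = 0.0289 and 0.0271 but fell short of 1.5-fold.

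Cxcl10, a CXCR3 ligand, was the gene with the widest gap between RAR and the single doses. In females its log2 ratios were -0.18, -0.38 and -0.55 in control, 0.90, 1.24 and 0.71 after the low dose, 1.02, 0.59 and 0.87 after the high dose and 3.78, 5.08 and 4.60 in RAR. Male arrays gave -0.80, -0.90 and -1.51 in control, 0.18, 0.28 and 0.71 after the low dose, 1.14, 1.36 and 1.33 after the high dose and 6.31, 5.71 and 5.08 in RAR. The RAR arrays stood apart from all others by more than 2 log2 units in both sexes. RAR minus high dose was 3.66 ± 0.31 in females, a 12.6-fold difference (limma, adjusted p = 1.17e-06), and 4.42 ± 0.31 in males, a 21.4-fold difference (adjusted p = 4.04e-07). RAR minus low dose reached 3.54 ± 0.31 and 5.31 ± 0.31, and high dose minus control was 1.20 ± 0.31 (adjusted p = 0.0133) in females and 2.35 ± 0.31 (adjusted p = 3.85e-05) in males.

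Cxcl9, the other CXCR3 ligand and an interferon-γ target, had no called change in the main fit. On its brighter probe the control arrays lay between 2.28 and 4.16 and the RAR arrays between 1.13 and 4.67, so the groups overlapped widely. RAR minus high dose was -0.31 (95% interval -1.68 to 1.05) in females and 0.09 (-1.28 to 1.45) in males, at an adjusted p of 0.828 and 0.960 from limma. The second probe gave -0.41 (-1.55 to 0.72) and 0.45 (-0.68 to 1.59). On female RAR replicate 3 neither probe was well above background. With the value of each group farthest from its mean left out, which narrows the spread by construction, RAR minus high dose in females was -1.58 for Cxcl9 (limma, adjusted p = 0.0130), in a fit that called 25.7% of all probes. With Cy5 alone, Cxcl9 high dose minus control in females was past the threshold at -0.86 (limma, adjusted p = 0.0326), where 2925 of the 55681 probes were lower. The intervals over all arrays are wide enough to hold changes of more than 1.5-fold in either direction.

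The CXCR2 ligands Cxcl1 and Cxcl2, which attract neutrophils, rose after either dose, and neither passed the threshold for RAR minus high dose. Cxcl2 had log2 ratios of -1.52, -1.34 and -0.85 in female control, 1.78, 1.09 and 2.34 after the low dose, 2.41, 1.17 and 2.61 after the high dose and 2.50, 1.47 and 2.07 in RAR. In males it read -1.73, -2.09 and -2.11, then 1.62, 0.45 and 1.82, then 1.22, 1.60 and 1.60, and 3.19, 2.86 and 1.81 in RAR. Control arrays stood below all others, and the irradiated groups overlapped in females. Its Cy5 signal was well above background on 0 of 3 control arrays of either sex, so these control values are not exact. With control set at the lowest signals that count as well above background, Cxcl2 was 4.32-fold higher after the high dose in females. The low dose gave 3.23-fold there, and the same estimates in males were 5.92-fold and 5.04-fold. Of the low dose arrays, 2 of 3 in each sex were well above background. Limma, on the log2 ratios as measured, gave adjusted p = 6.31e-05 and 0.000163 in females and 3.06e-05 and 8.75e-05 in males. These folds depend on the background handling. With normexp background correction and loess the differences were 0.76 and 0.51 log2 units in females and 0.62 and 0.53 in males. RAR minus high dose was -0.05 (95% interval -0.98 to 0.88) in females and 1.15 (0.22 to 2.08) in males, with limma adjusted p = 0.968 and 0.115. On female RAR replicate 3 Cxcl2 was not well above background, and without that array the female difference was -0.08. The male difference was past the threshold with Cy5 alone (1.145, limma adjusted p = 0.0486). It also passed when each group lost its most distant value, or only values over 1 log2 unit away (1.42 and 1.55, limma adjusted p = 0.000305 and 0.00264), steps that narrow the spread by construction. RAR minus low dose in males passed the threshold at 1.33 ± 0.44 (adjusted p = 0.0487). That last call was lost, at adjusted p = 0.197, 0.130, 0.0690 and 0.203, when male RAR replicate 1, male RAR replicate 2, male low dose replicate 1 or male low dose replicate 2 was left out, with quantile scaling (adjusted p = 0.214), with normexp (0.54, short of 1.5-fold) and in a fit of only the 2 groups (adjusted p = 0.229).

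Cxcl1 gave log2 ratios of -6.83, -6.54 and -6.95 in female control, -3.87, -3.85 and -4.04 after the low dose, -4.72, -5.51 and -5.32 after the high dose and -4.68, -3.92 and -5.43 in RAR. For males the values were -6.77, -6.66 and -6.61, then -5.55, -4.98 and -4.00, then -4.45, -3.95 and -4.74, and -4.42, -5.02 and -4.84 in RAR. The female low dose arrays were above the female high dose arrays, and the male groups overlapped. None of the female control arrays was well above background. With these set at the lowest signals that count as such, Cxcl1 was 6.94-fold higher after the low dose and 2.93-fold higher after the high dose. Limma, on the log2 ratios as measured, gave adjusted p = 3.23e-05 and 0.00581. With normexp these female rises were 1.29 log2 units after the low dose and 0.48 after the high dose. In males, where all 3 control arrays were measured, the rises were 1.83 ± 0.36 after the low dose (adjusted p = 0.00255) and 2.30 ± 0.36 after the high dose (adjusted p = 0.00021). RAR minus high dose was 0.51 (95% interval -0.25 to 1.26) in females and -0.38 (-1.14 to 0.38) in males, neither past the threshold, and with normexp the female difference was past it (0.59, limma adjusted p = 0.00827). On female RAR replicate 3 Cxcl1 was not well above background, so the female RAR mean is not exact. Without that array the female difference was 0.88, not past the threshold.

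**Figure D2:**
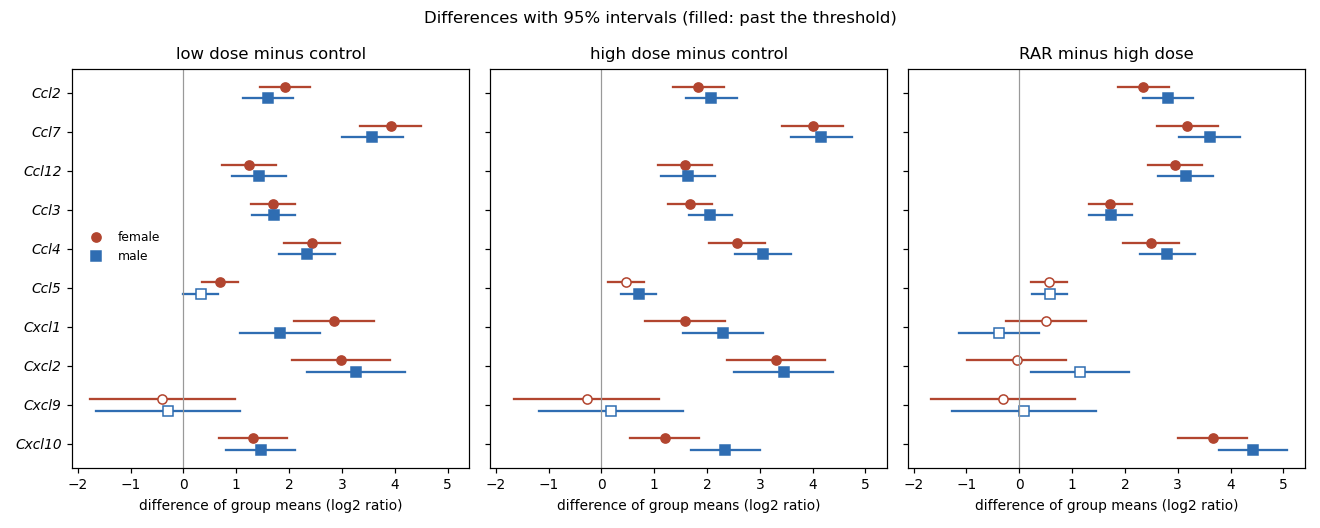
Differences of group means on the log2 scale (horizontal axis) for each chemokine gene (vertical axis) in 3 comparisons, with 95% intervals as lines, females as circles, males as squares and filled symbols past the threshold. Control values of Cxcl2 in both sexes and of Cxcl1 in females are not well above background, so those differences from control are not exact. Female RAR replicate 3 was not well above background for Cxcl1, Cxcl2 and Cxcl9. The symbols of Ccl7 are a description, and in the right panel the filled symbols are Ccl2, Ccl7, Ccl12, Ccl3, Ccl4 and Cxcl10.

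The single doses differ in size and in radiation type, and no chemokine separated them past the threshold in either sex, beside 0% of all probes in females and 0.00180% in males. At an unadjusted p under 0.05, high dose and low dose differed for 1 of 10 genes in females, beside 4.74% of all probes, and for 5 in males, beside 7.35%, by limma. In females the 1 gene was Cxcl1, lower after the high dose by 1.27 log2 units (95% interval of high minus low -2.02 to -0.51, adjusted p = 0.992). In males all 10 means were higher after the high dose, by 0.18 to 0.89, with the largest for Cxcl10 (0.89, 0.24 to 1.53, adjusted p = 0.556) and Ccl4 (0.73, 0.21 to 1.26, adjusted p = 0.550). For Ccl7, high minus low dose was 0.07 (-0.50 to 0.65, adjusted p = 0.992) in females and 0.59 (0.01 to 1.17, adjusted p = 0.674) in males. The intervals leave room for differences of 1.5-fold in either direction for several genes, so the doses are not shown to act alike.

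Set against the sum of the single-dose changes on the log2 scale, the RAR changes differed between the genes, in part with the background handling. Cxcl10 exceeded the sum by 2.34 in females and 2.96 in males, and Ccl12 by 1.71 and 1.72. Ccl3 and Ccl4 lay close to it, at 0.03 and 0.06 in females and 0.03 and 0.47 in males, and Ccl7 lay at -0.74 and 0.02. Ccl2 was above the sum by 0.43 and 1.20, Ccl5 lay at -0.13 and 0.25, and Cxcl9 at 0.08 and 0.38. Cxcl1 and Cxcl2 lay below it, at -2.35 and -3.03 in females and -2.21 and -2.13 in males. The control values of Cxcl2 and of female Cxcl1 are not exact, and neither are the female RAR means of both, where replicate 3 was not well above background. With normexp background correction and loess, Cxcl2 came to -0.26 in females and -0.081 in males, Cxcl1 to -0.71 and -1.08, and Ccl7 to 0.51 and 0.95, while Cxcl10 stood at 2.43 and 3.31. These figures use the contrast of the selection and are a description with no test.

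**Figure D3:**
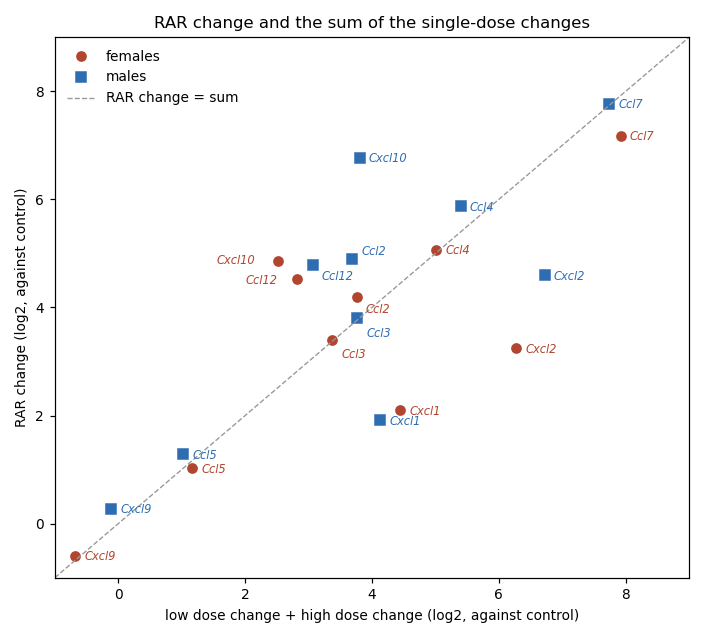
Change from control to RAR (vertical axis) against the sum of the changes from control to low dose and from control to high dose (horizontal axis), both on the log2 scale, for the 10 chemokine genes in females (circles) and males (squares), with the dashed line where both are equal. Cxcl10 and Ccl12 lie above the line in both sexes, Cxcl1 and Cxcl2 below it, and Ccl3 on it, where the gap of Cxcl2 shrinks to -0.26 and -0.081 with normexp background correction.

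Between the sexes no chemokine passed the threshold under any treatment in the main fit. The share of all probes past it in either direction was 0.210% in control, 0.228% after the low dose, 0.304% after the high dose and 0.438% in RAR. At an unadjusted p under 0.05 in limma, males and females differed for 2 of 10 genes in control, 2 after the low dose, 1 after the high dose and 3 in RAR, beside 8.57%, 3.91%, 9.71% and 11.8% of all probes. The RAR difference was widest for Cxcl10, 1.21 ± 0.31 higher in males (adjusted p = 0.118), followed by Ccl2 among those 3 genes (0.80 ± 0.23, adjusted p = 0.169) and Ccl7 (0.68 ± 0.27). No chemokine had RAR arrays of the sexes fully apart, but for Cxcl10 the overlap was narrow. Its highest female RAR array lay at 5.0766 and its lowest male RAR array at 5.0761. That female array is replicate 2, with 71.8% of spots well above background. Without it, 1 chemokine passed the threshold for male minus female in RAR, with no share of all probes computed. With normexp the count was also 1, where 208 of the 55681 probes were higher and 15 lower. With Cy5 alone it was 1, where 223 were higher and 1583 lower. The F-test of sex by treatment in limma called 0 of 10 genes, beside 0.00359% of all probes, with the lowest p for Cxcl10 (limma, unadjusted p = 0.00102, adjusted p = 0.564). Unadjusted, 4 of the 10 genes had p under 0.05 in that test, with no share of all probes computed.

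Slide, array quality and background handling touched some of these values. The 24 arrays lay on 3 slides of 8, and 49.3% to 62.8% of spots were well above background in Cy5 on 22 of them, against 71.8% and 34.7% on female RAR replicates 2 and 3. With these 2 arrays left out, female RAR is 1 array (replicate 1), so only differences are given for that fit. There RAR minus high dose in females was 2.72 for Ccl7, 1.81 for Ccl2 and 2.95 for Cxcl10. Female control arrays were all on slide 2 and female high dose arrays all on slide 3, so no within-slide value exists for that comparison, and with slide as a block Cxcl10 and Cxcl1 lost their call there at differences of 1.43 and 1.48 (limma, adjusted p = 0.133 and 0.249), beside 1.20 and 1.59 without the block. High dose minus low dose and RAR minus control in females shared no slide either. In the comparisons with arrays of both groups on a slide, all 66 within-slide differences of called genes had the sign of the pooled value. They come from parts of the arrays that gave the calls, so the count cannot test a slide effect and nothing is read from it. Ccl7 was 2.95 higher in RAR than after the high dose on slide 3 in females, and 3.88 and 3.51 higher on slides 1 and 3 in males. Ccl5 lost its calls for low dose minus control in females and high dose minus control in males under that block (adjusted p = 0.0654 and 0.0562). With normexp background correction and loess, changes from low control levels shrank, for Ccl7 to 2.61 in females and 3.10 in males for high dose minus control, and for Cxcl2 to 0.76 and 0.62, and calls were lost for Cxcl1 after the high dose in females (0.48), for Ccl12 after the low dose in females (0.53) and for Cxcl2 after the low dose in both sexes (0.51 and 0.53). The same correction took the count for RAR minus high dose in females from 6 to 8, with Ccl5 (0.65, limma adjusted p = 0.00295) and Cxcl1 added. Of the 55681 probes, 2226 were higher there in the main fit and 2133 with normexp. In a fit of only the 2 groups compared, 3 of the 6 calls for RAR minus low dose in females remained, with Ccl2, Ccl3 and Cxcl10 at adjusted p = 0.0759, 0.0669 and 0.0533. That fit also took the RAR minus high dose calls of Ccl2 in females (limma, adjusted p = 0.0511) and of Ccl3 and Ccl4 in males (adjusted p = 0.0565 and 0.0514), and the low dose minus control calls of Cxcl1 and Cxcl10 in males (adjusted p = 0.1004 and 0.0698).

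Several other chemokines moved as well. Of 25 listed ligands 24 had a named probe, and 6 rose and 1 fell from the high dose to RAR in females, with 5 rising and 0 falling in males, beside medians of 0.31 and 0.41 log2 units over the list and -0.03 and -0.02 over all probes. Ccl24, an attractant of eosinophils, rose by 3.91 ± 0.33 in females (limma, adjusted p = 1.12e-06) and by 4.20 ± 0.33 in males (adjusted p = 5.95e-07). Ccl9 rose by 2.19 ± 0.24 and 2.40 ± 0.24, and Ccl8, a relative of the CCR2 ligands, by 2.15 ± 0.28 and 2.61 ± 0.28. Ccl25, which thymic epithelium makes to attract thymocyte precursors, fell by 0.84 ± 0.25 in females (adjusted p = 0.0381). From control to the high dose, 4 of the 24 rose and 1 fell in females and 4 rose and 0 fell in males, Ccl9 with 2.07 ± 0.24 and 2.79 ± 0.24 and Ccl6 with 1.60 ± 0.30 and 2.11 ± 0.30 among them.

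No listed receptor was higher past the threshold in RAR than after the high dose. Of 22 chemokine receptors, 0 rose and 1 fell in each sex, Cxcr5 in females (-2.38 ± 0.73, limma adjusted p = 0.0402) and Ccr4 in males (-0.62 ± 0.19, adjusted p = 0.0459). From control to the high dose 3 rose and 3 fell in females, and 3 rose and 2 fell in males. Ccr2, the receptor of Ccl2, Ccl7 and Ccl12, was among those that rose in females (1.64 ± 0.42, adjusted p = 0.0137), and Ccr4 fell in both sexes (-1.45 ± 0.19 and -1.41 ± 0.19, adjusted p = 5.60e-05 and 5.69e-05). Cxcr2, the receptor of Cxcl1 and Cxcl2, also rose in both sexes, but it was well above background on none of the female control arrays, so no fold is given.

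Among known inducers of chemokine genes, Il1b was higher after the high dose than in control, and Irf7 was higher in RAR than after the high dose. Of 15 listed cytokines and regulators, 4 rose in females and 5 in males from control to the high dose, and 1 in females and 4 in males from the high dose to RAR, with none falling. Il1b, a cytokine that acts through NF-κB, went from a mean of 0.64 in female control to 5.72 after the high dose (difference 5.09 ± 0.33, limma adjusted p = 2.06e-08) and stood at 5.56 in RAR, and in males it went from 0.21 to 5.99 and stood at 5.36. Irf7, an interferon-induced regulator, was 2.23 ± 0.21 higher in RAR than after the high dose in females and 2.01 ± 0.21 higher in males (adjusted p = 3.60e-06 and 9.19e-06). Neither the difference between the sexes in these counts nor a part of these genes in the chemokine changes was tested.

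Markers of macrophages and monocytes, as a list, stood highest in RAR and changed less from control to the single doses. Their part in the results was not tested. Of the 13 markers, 10 were well above background on all arrays and Cd163 on none. Their mean log2 ratio per array ranged from 0.34 to 0.82 in female control, 0.81 to 0.91 after the low dose, 0.77 to 1.05 after the high dose and 1.58 to 2.14 in RAR, and from 0.23 to 0.51, 0.66 to 0.84, 0.89 to 1.23 and 1.97 to 2.37 in males. From control to the high dose 2 of the 13 rose and 1 fell in females and 6 rose in males, at list medians of 0.36 and 0.48. From control to the low dose 3 rose and 1 fell in females, and 3 rose and 0 fell in males. Values of single markers are given here only for ones that rose. After the high dose Cd14, a receptor for bacterial lipopolysaccharide, was 3.10 and 3.49 higher than in control. From the high dose to RAR 9 of 13 rose in females and 7 in males, none fell, and the medians were 0.99 and 0.78. Cd68, a lysosomal protein of phagocytes, rose by 1.34 ± 0.14 and 1.60 ± 0.14, Mrc1, the mannose receptor, by 1.86 ± 0.51 and 3.12 ± 0.51, and Fcgr1, an Fc receptor of monocytes and macrophages, by 2.31 ± 0.45 and 2.95 ± 0.45. Neutrophil markers, of which all 9 measured were well above background, had means from 3.05 to 3.87 in control, 3.45 to 4.19 over the single doses and 3.24 to 4.15 in RAR. They rose for 2 of 9 genes in females and 3 in males from control to the high dose and for 3 and 1 from the high dose to RAR. Thymic epithelium markers had means from 0.37 to 0.82 in control and from -0.81 to 0.15 in the irradiated groups. Double-positive thymocyte markers were well above background on all arrays for 11 of 11 genes, with means from 5.05 to 5.72 in all groups, and thymocytes are the labelled cell type. Of the other lists, mature T cell markers had means from 3.99 to 4.25 in control and 4.51 to 4.77 in RAR. Dendritic cell markers had means from 1.58 to 2.11 in female control and 1.72 to 2.00 in female RAR. In males these markers stood highest in RAR, from 2.50 to 2.68, beside 1.60 to 2.00 in control, 1.77 to 2.01 after the low dose and 1.94 to 2.24 after the high dose. B cell markers had means from 0.70 to 1.13 in control and 0.24 to 0.53 in RAR, and erythroid markers from 2.04 to 2.90 and 2.26 to 2.85. Stroma and endothelium markers had means from -2.68 to -2.37 in control and -3.05 to -2.85 in RAR in females, and from -2.78 to -2.59 and -2.86 to -2.48 in males.

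**Figure D4:**
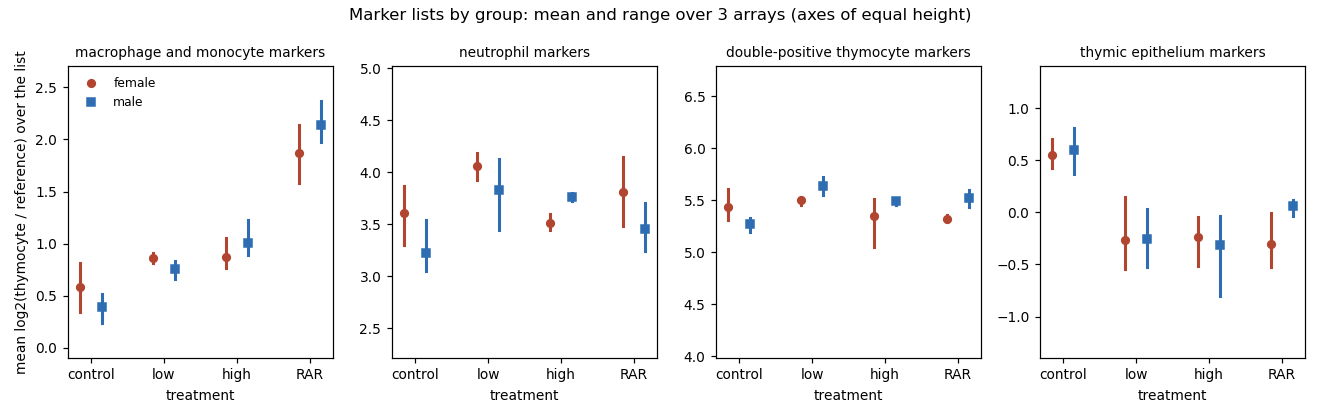
Mean log2 ratio over each of 4 marker lists (vertical axis, panels of equal height) by treatment (horizontal axis), as the mean of 3 arrays with the range over arrays as a line, for females (circles) and males (squares). The macrophage and monocyte list is highest in RAR, from 1.58 to 2.37, and the double-positive thymocyte list stays between 5.05 and 5.72.

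The genes whose pattern over the 24 arrays was most like that of Ccl7 included other chemokines. By Pearson correlation with Ccl7 over 14667 genes, Litaf (0.991) came first, then Ccl9 (0.991), Hmox1 (0.990), Ccl3 (0.990), Lilr4b (0.989), Casp4 (0.989), Emilin2 (0.989), Clec4e (0.987), Slfn4 (0.987) and Clec4d (0.987). Ccl4 held rank 11 and Ccl2 rank 19, followed by Ccl12 at 157, Cxcl10 at 377, Ccl5 at 478, Cxcl2 at 1000, Cxcl1 at 2360 and Cxcl9 at 6199 with a correlation of -0.03. The arrays share their groups and the reference RNA, so these values describe the pattern of group means and carry no p.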

How the data were processed

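Thymocyte RNA (Cy5) and a reference RNA (Cy3) were hybridized by the authors to 24 2-colour Agilent arrays without dye swap, 3 per group, grouped by the labelled sex and treatment. Per the file headers, the deposited intensity values were extracted with Feature Extraction 11.5.1.1, and the processed signals used here are background-subtracted and dye-normalized. The deposited log2 ratios matched these signals within 0.01 and served as an alternative. The direction is thymocyte over reference, from the dyes in the labels.

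Control spots and outlier spots (183 to 368 per array) were dropped, spots of a probe were averaged, and 55681 probes were fitted as 8 group means in limma 3.58.1 (R 4.3.3, 16 residual degrees of freedom) with Benjamini-Hochberg adjustment over all probes. The threshold was 0.05 for the adjusted p together with a 1.5-fold or larger change. The brightest probe by mean Cy5 stands for a gene, and 28026 probes had a gene name. Folds against dim control arrays use the signals after Aquantile normalization between arrays. Each dim array was set at its lowest signal well above background, or at the probe's own signal where that was higher. These folds are estimates and not strict limits. The fit was tested on simulated data. The files were read with the data.table package, and figures were made with Python 3.11.15, pandas 2.3.3, numpy 2.4.6 and matplotlib 3.10.9.

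The chemokines and all gene lists (other chemokines, receptors, inducers and cell type markers) were chosen with earlier results of these data known. All 10 chemokines are named, and from the other lists those past the threshold with the largest changes, with a few chosen after their values were seen. Alternatives were normexp with loess, quantile scaling, the Cy5 channel alone, filters on dim probes, slide and replicate number as blocks, other thresholds and leaving arrays out. The number of arrays limits the precision, and p-values measure the spread between these mice. The deposited comparisons of the authors were not used.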

Additional observations from a re-analysis of the deposited data

How the results depend on the processing

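Of the recomputed counts of chemokines past the threshold, 270 stayed within 1.5 times the reported count, 19 rose and 1 fell, and the deposited log2 ratio table changed no call. The fall was RAR minus low dose in females, with 3 genes in a fit of only the groups compared. Leaving out the value of each group farthest from its mean, which narrows the spread by construction, gave 1 gene for high dose minus low dose in females and 2 in males, 2, 2, 2 and 6 for male minus female in control, low dose, high dose and RAR, and 10 for the interaction, beside 13.9% and 18.0%, 16.9%, 13.2%, 17.0% and 18.6%, and 60.3% of all probes. Leaving out values over 1 log2 unit from their group gave 1 and 2 for high dose minus low dose, beside 5.45% and 8.25% of all probes. For male minus female it gave 2 after the low dose, 1 after the high dose and 2 in RAR, beside 4.44%, 8.9% and 10.3%. For the interaction it gave 5, beside 17.4%. Male minus female in RAR was also 1 with normexp, where 208 of the 55681 probes were higher and 15 lower. With Cy5 alone it was 1, where 223 probes were higher and 1583 lower. It was 0 to 1 when 1 array was left out, with no share of all probes computed. Without both female RAR arrays that stand apart (chosen after seeing the data), 1 female RAR array is left, so no count is given. The cause was not tested.

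Of the single genes, 26 values changed sign, none of them past the threshold as reported. Cxcl2 RAR minus high dose in females was 0.24 with normexp, 0.83 with Cy5 alone, 0.43 without both arrays and -0.50 to 0.22 with 1 array left out. Cxcl9 RAR minus high dose in females was 0.17 with normexp, 0.53 with Cy5 alone and -1.19 to 0.56 with 1 array left out, and RAR minus low dose 0.16, 0.43 and -1.07 to 0.67. In males Cxcl9 was -0.12 with normexp and -0.084 with slide as a block for high dose minus control, 0.13 with Cy5 alone for low dose minus control, and -0.20 with quantile scaling, -0.19 with slide as a block and -0.29 to 0.54 with 1 array left out for RAR minus high dose. Cxcl1 in males was 0.042 with normexp for RAR minus high dose, and -0.11 with quantile scaling and -0.27 to 0.51 with 1 array left out for RAR minus low dose. With 1 array left out, Cxcl9 high dose minus control in females was -0.87 to 0.11 and Cxcl2 RAR minus low dose in females -0.049 to 0.58. Ccl5 RAR minus low dose in females was -0.047 without both arrays.

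Cxcl10 high dose minus control in females lost its call without female control replicate 3 (1.11, limma adjusted p = 0.0606) or female high dose replicate 1 (1.104, adjusted p = 0.0545). Replicate numbers did not pair the arrays, as deviations of same-numbered arrays correlated between -0.164 and 0.222. With the replicate block the counts were 0, 8, 9, 6 and 6 in females for high dose minus low dose, high dose minus control, low dose minus control, RAR minus high dose and RAR minus low dose, and 0, 9, 8, 6 and 8 in males. Beside them 0, 2262, 2551, 2077 and 1123 of the 55681 probes were higher past the threshold in females and 0, 2782, 1651, 1615 and 2695 in males. Each comparison of the sexes gave 0, beside 100, 111, 144 and 192 probes higher in males and 11, 11, 27 and 62 lower in control, low dose, high dose and RAR. The interaction gave 0, beside 1 probe. Scan date as a block was not run, since each slide was 1 scan.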
